A study of Mus musculus with 6 samples.

Results

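The 64 array probes of the protocadherin genes, out of 55681 probes that are not controls, were described in the cerebellum of mouse pups at postnatal day 1 (P1) after maternal folic acid (FA) at 2 or 20 mg/kg diet. The members are every probe whose gene name in the scanner files begins with Pcdh. They stand for 47 genes, of which the alpha cluster has 9 probes for 7 genes, the beta cluster 22 probes for 22 genes, the gamma cluster 7 probes for 6 genes, and the genes outside the clusters 26 probes for 12 genes. C57BL/6J dams received a custom amino acid-based AIN-93G diet from 1 week before mating and throughout gestation. The 4 groups were female pups at 2 mg, female pups at 20 mg, male pups at 2 mg and male pups at 20 mg, all of the same strain and age and with no altered allele. Each array holds the RNA of a pool of 3 pups of 1 sex, each pup from another dam. There was 1 array per sex at 2 mg and 2 arrays per sex at 20 mg, the second of a separate set of pups. A spread between arrays is thus known at 20 mg only. One field of the labels gives the tissue as whole brain, while the titles give cerebellum. All 11 cerebellar markers and all 7 forebrain markers counted here were well above background on both 2 mg arrays, and 5 of 11 and 0 of 7 were so on all 6 arrays.

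Protocadherins are cell surface adhesion proteins of the cadherin superfamily. In the clusters each variable exon has its own promoter, and in alpha and gamma it is spliced to exons that all isoforms of the cluster share, whereas each beta gene stands alone. Single neurons use different sets of isoforms, which bind to the same isoforms on other membranes and let a neuron tell its own branches from those of others, as in cerebellar Purkinje cells. The choice of promoter depends on CTCF, cohesin and DNA methylation, to which folate supplies methyl groups. The genes outside the clusters are single genes with a role in cell sorting, axon growth and synapse formation.

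In the probe positions of the scanner files (mouse build mm9) the clusters lie side by side on chromosome 18, with the alpha probes between 37114742 and 37347294, the beta probes between 37427011 and 37680728 and the gamma probes between 37823813 and 38001437. Pcdh1 and Pcdh12 follow on the same chromosome, and the other 10 genes lie on chromosomes 3, 5, 10, 14 and X. Exon and UTR annotation of this build was not used here. All 22 beta symbols and all 12 symbols outside the clusters in the RefSeq table (assembly GRCm38.p6) had a probe of their own, against 7 of 14 in alpha and 6 of 22 in gamma. Of 60 RefSeq accessions listed for the members, 58 were found in that table. There were 5 probes that list at least 2 RefSeq genes, so their signal cannot be given to 1 isoform. Among these, Pcdhac2 probe 2 and both Pcdhga9 probes lie beyond the last variable-exon probe of their cluster and list several isoforms, and they are called shared-exon probes here. The probe called Pcdha8 probe 2 also lists Pcdha4 and Pcdha7.

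Protocadherins were widely detected. A probe counts as detected where the scanner software flagged it well above background. Of the 64 probes, 55 were detected on the female 2 mg array, 60 on female 20 mg replicate 1, 58 on the male 2 mg array, 48 on male 20 mg replicate 1 and 50 on male 20 mg replicate 2. Of all probes, 63.6%, 71.9%, 65.8%, 51.1% and 55.7% were detected on these arrays in the same order, so the protocadherins had the higher share on each. The array labelled female 20 mg replicate 2 stood apart, with 23.3% of all probes and 14 of the 64 protocadherin probes (21.9%) detected. It is called the dim array below, and its rank correlation with the other arrays averaged 0.66 over all probes, against 0.86 to 0.89 for the others. Over the 64 protocadherin probes, Spearman's rho with it was 0.60 to 0.66, and 0.88 to 0.99 between the other arrays, as a description of probes that share their arrays. The dim array was scanned on the earlier of 2 scan days, as was male 20 mg replicate 1 on the same slide. Both 2 mg arrays share a slide with female 20 mg replicate 1, and male 20 mg replicate 2 lay on slide 3. No male 20 mg array thus shares a slide with the male 2 mg array, and in male pups dose and slide cannot be told apart. Because of the low detection on the dim array, calls and class medians in female pups are also given without it.

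**Figure D1:**
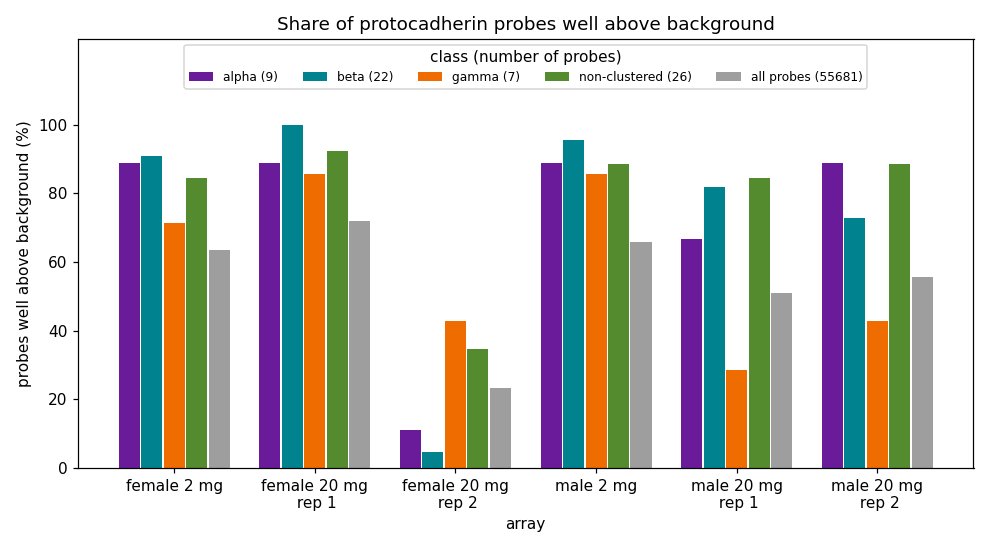
Percent of probes flagged well above background (vertical axis) on each of the 6 arrays, with 1 bar per protocadherin class and a grey bar for all 55681 probes. On female 20 mg replicate 2 the alpha bar stands at 11.1% and the beta bar at 4.55%, while gamma stands at 42.9% and the genes outside the clusters at 34.6%. The gamma probes detected there were both shared-exon probes and Pcdhgc5.

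The classes differed in how they fared on the dim array. Of the 16 beta probes detected on the other 5 arrays, 15 were not detected there. The same held for 5 of 6 alpha probes, 0 of 2 gamma probes and 13 of 22 probes outside the clusters. Both of these gamma probes were shared-exon probes. In all, 33 of 46 protocadherin probes (71.7%) were lost, against 51.8% of all probes detected on the other 5 arrays. The 13 probes detected on all 6 arrays were the 3 shared-exon probes, Pcdhb20, Pcdh1 probe 2, Pcdh8, Pcdh9 probe 1, both probes of Pcdh10, Pcdh15 probe 7, Pcdh17, Pcdh18 and Pcdh19. They were bright probes, each with a log2 signal of at least 9.43 on the female 2 mg array. Among the lost probes the brightest there was Pcdhb21, at 10.46, so the ranges overlapped. The part of probe brightness in the class differences was not tested. The 4 probes detected on no array were Pcdhac1, Pcdhga5 and Pcdh15 probes 1 and 6. No member was saturated.

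All levels below are log2 of the normalized signal, with a floor at log2 of 10, which is 3.32. Each sex is given in the order 2 mg, 20 mg replicate 1 and 20 mg replicate 2. The brightness of different probes depends on their sequence, so for expression a level is compared with the same probe on other arrays only. The dose difference is the mean log2 of the 20 mg arrays of a sex minus its 2 mg array. In such pooled tissue, fewer cells of a type and less RNA per cell cannot be told apart.

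The shared-exon probes list several isoforms of the alpha or gamma cluster each. The alpha shared-exon probe, Pcdhac2 probe 2 (chr18:37347235-37347294), read 13.91, 13.67 and 13.91 in female pups and 13.73, 13.97 and 12.49 in male pups. Male 20 mg replicate 2 was the lowest of its 6 values, and the others lay between 13.67 and 13.97. The dose difference was -0.12 in female pups and -0.51 in male pups, below the SD of 1.04 between the male 20 mg pools. The gamma shared-exon probe Pcdhga9 probe 2 (chr18:38001378-38001437) read 14.75, 14.29 and 12.82 in female pups. In male pups it read 14.41, 15.07 and 15.17. Both female 20 mg arrays lay below the female 2 mg array and both male 20 mg arrays above the male one, with dose differences of -1.19 and 0.71. The interaction of dose and sex did not pass limma's test, a linear model with moderated variances fitted over all probes (unadjusted p = 0.16, adjusted p = 1.0). The other gamma shared-exon probe, Pcdhga9 probe 1, read 9.43, 8.59 and 10.69 in female pups and 9.23, 8.21 and 10.66 in male pups. Its replicate 1 was the lowest and its replicate 2 the highest array in both sexes, and both dose differences were 0.21. The female dose differences of the gamma probes thus had opposite signs, while without the dim array they were -0.84 for probe 1 and -0.43 for probe 2.

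Alpha isoforms were detected with single variable-exon probes, 7 of 8 of them on both 2 mg arrays and none on female 20 mg replicate 2. Pcdha8 probe 2 read 10.01, 10.15 and 5.07 in female pups and 10.22, 9.59 and 10.83 in male pups. Pcdha9 read 8.18, 8.16 and 3.32 in female pups and 8.26, 7.50 and 8.19 in male pups. For both, the dim array was the only one far from the rest, and it was not above background there. Pcdhac1 and Pcdhac2 are C-type isoforms, which are chosen less by chance than the other variable exons. Pcdhac2 probe 1, in its own variable exon, read 6.31, 6.67 and 3.32 in female pups and 6.30, 6.50 and 6.41 in male pups. Its values on the 5 arrays other than the dim one lay between 6.30 and 6.67. Pcdhac1 lay between 3.47 and 4.58 on the 6 arrays and was never above background.

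The beta genes have no shared exon, and each of the 22 probes lists 1 RefSeq gene. Pcdhb20 (chr18:37666914-37666973) read 10.86, 10.99 and 11.31 in female pups and 10.85, 10.90 and 10.05 in male pups. It was the 1 beta probe detected on all 6 arrays, and its dose differences were 0.29 in female and -0.37 in male pups. Pcdhb7 read 9.91, 10.13 and 6.51 in female pups and 9.87, 9.92 and 9.23 in male pups. Pcdhb21 read 10.46, 10.40 and 7.06 in female pups and 10.54, 10.97 and 10.13 in male pups. In both, the dim array gave the lowest value, without detection. Pcdhb1, Pcdhb2, Pcdhb11 and Pcdhb19 were the 4 beta genes that neither male 20 mg array detected, and they reached at most 5.59 on any array. The 22 beta genes spanned 3.78 to 10.86 on the female 2 mg array and 3.60 to 10.85 on the male 2 mg array.

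The gamma variable-exon probes on the array were mostly near the background. Of the 22 gamma symbols, 15 had no probe of their own and no listing on another, so most gamma variable exons were not measured. Of their 5 probes, 3 were detected on the female 2 mg array and 4 on the male one. At 20 mg, 4 were detected on female replicate 1, 1 on female replicate 2, 0 on male replicate 1 and 1 on male replicate 2. Pcdhgc5, a C-type gamma isoform, read 5.42, 5.43 and 9.11 in female pups and 5.51, 4.12 and 6.04 in male pups. It is the 1 variable-exon probe of the alpha and gamma clusters that was detected on female 20 mg replicate 2, and there it was the highest of the 6. Pcdhgb1 read 5.39, 4.47 and 3.32 in female pups and 4.62, 4.56 and 4.80 in male pups, and neither male 20 mg array detected it. Pcdhga10 read 6.16, 3.94 and 3.64 in female pups and 4.14, 4.52 and 3.32 in male pups. Its female 2 mg value stood above the other 5, and the female dose difference of -2.37 had the smallest unadjusted limma p of the members (0.064, adjusted p = 1.0). It did not pass the filter on variance that goes with the fold rule below, and it was chosen after its values were seen.

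**Figure D2:**
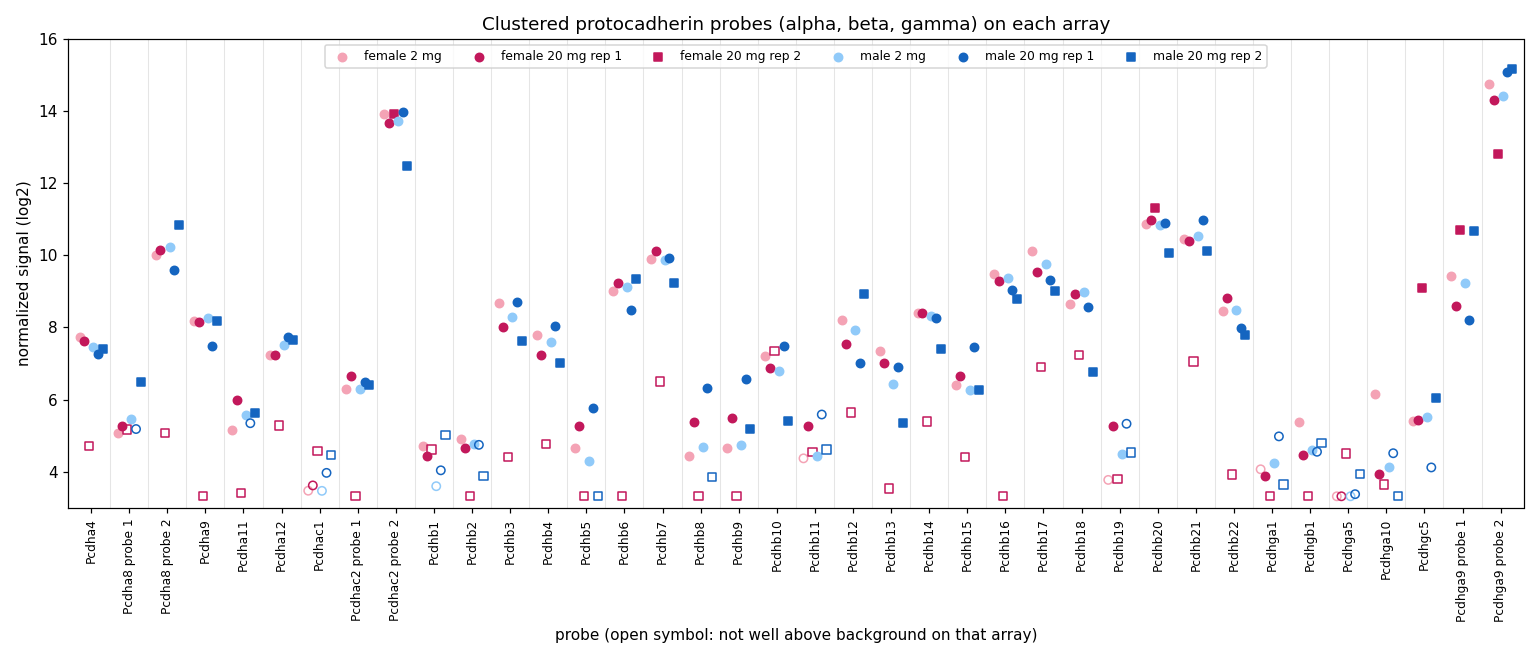
Normalized signal (log2, vertical axis) of the 38 clustered protocadherin probes, ordered by position, on the 6 arrays. Open symbols mark values not well above background. Female 20 mg replicate 2 (dark pink squares) has the most open symbols of the 6 arrays, with 1 of 9 alpha, 1 of 22 beta and 3 of 7 gamma probes detected.

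Outside the clusters, the brightest probe of each gene was detected on all 6 arrays for 8 of 12 genes. Pcdh17, which acts in axon growth and synapse assembly, read 13.71, 13.66 and 13.42 in female pups and 13.89, 13.67 and 13.50 in male pups. Its 4 arrays at 20 mg all lay below both at 2 mg, by dose differences of -0.17 in female and -0.30 in male pups, with limma's p for both sexes together at 0.72 (adjusted p = 1.0). Pcdh19, an X-linked gene mutated in an epilepsy of girls, read 12.86, 12.92 and 11.98 in female pups and 13.01, 12.92 and 12.54 in male pups. Replicate 2 was the lowest array in both sexes, and the dose differences were -0.42 in female and -0.28 in male pups. Pcdh8, which binds N-cadherin at synapses and takes part in its internalization, read 11.93, 11.85 and 11.80 in female pups and 11.73, 12.35 and 11.19 in male pups. The male 20 mg pools lay on either side of the male 2 mg value, and the female dose difference was -0.10. Pcdh10, which links to actin regulators at the membrane, has a pair of probes that disagreed. Probe 1 read 11.37, 11.68 and 11.93 in female pups and 11.36, 10.70 and 11.20 in male pups. Probe 2 read 11.41, 11.20 and 10.90 in female pups and 11.51, 12.29 and 11.36 in male pups. The female dose differences were 0.43 and -0.36, and the male ones -0.41 and 0.32, so the direction turned with the probe.

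Pcdh18 read 10.94, 10.90 and 9.20 in female pups and 11.08, 11.42 and 10.77 in male pups. Pcdh9, by its brightest probe, read 11.87, 12.01 and 9.65 in female pups and 11.57, 11.61 and 10.62 in male pups. On these probes replicate 2 was the lowest array of each sex, while replicate 1 differed from the 2 mg array by -0.04 in female and 0.35 in male pups for Pcdh18 and by 0.14 and 0.04 for Pcdh9. The 3 probes of Pcdh9 disagreed, with female dose differences from -1.04 to 1.00, 2 of them above 0. On its probe 3 replicate 2 was the highest array of each sex. Pcdh15, which forms the tip links of hair cells with cadherin 23, has 7 probes, and its brightest, probe 7, read 9.74, 10.35 and 9.49 in female pups and 10.18, 10.24 and 8.74 in male pups. Its 7 probes had female dose differences from -0.84 to 0.80 and male ones from -0.69 to 1.01. Pcdh1 probe 2 read 10.28, 9.35 and 11.57 in female pups and 9.85, 9.44 and 12.60 in male pups. In both sexes replicate 1 lay below and replicate 2 above the 2 mg array, and the male dose difference of 1.17 was less than the SD of 2.24 between the pools.

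Pcdh7 probe 3 read 9.03, 9.37 and 8.49 in female pups and 9.22, 9.83 and 7.87 in male pups, with replicate 1 above and replicate 2 below the 2 mg array in both sexes. Pcdh20 read 8.84, 9.30 and 4.55 in female pups and 8.62, 9.50 and 8.12 in male pups. Pcdh11x probe 1 read 8.17, 7.86 and 3.32 in female pups and 8.22, 7.66 and 8.76 in male pups. For Pcdh20 and Pcdh11x the dim array alone was far from the others. Pcdh12, a protocadherin of endothelial cells, read 7.15, 7.60 and 7.83 in female pups and 7.74, 6.39 and 7.35 in male pups. Both female 20 mg arrays were above and both male 20 mg arrays below their 2 mg array, with an interaction p of 0.63 (limma, adjusted p = 1.0), and the probe was not detected on female 20 mg replicate 2.

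**Figure D3:**
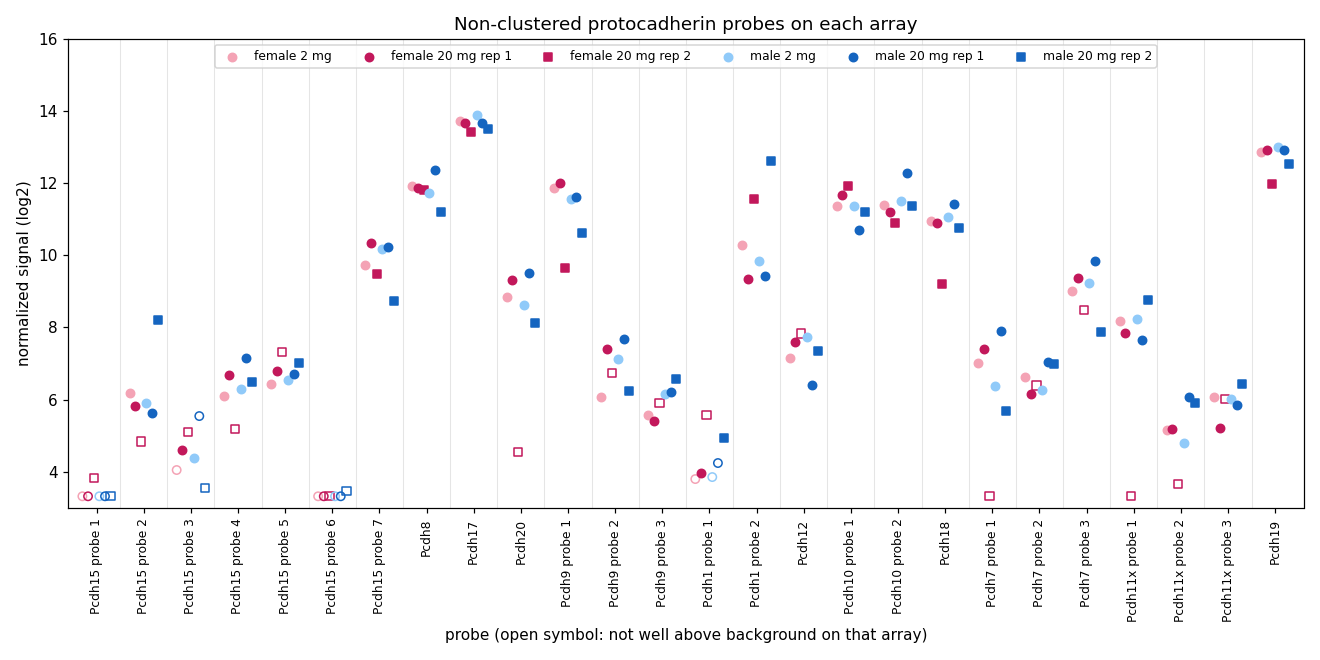
Normalized signal (log2, vertical axis) of the 26 probes of protocadherin genes outside the clusters on the 6 arrays, with open symbols for values not well above background. Pcdh17 lies between 13.42 and 13.89 on all 6 arrays, while Pcdh1 probe 2 ranges from 9.35 to 12.60.

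The comparison of FA doses asks whether protocadherin transcripts differ in the cerebellum of pups from dams on 20 mg. By the rule of the study's methods, as rebuilt here, a probe is called where it passes a filter on its variance over the 6 arrays and its dose difference is at least 2.5-fold. The counts over all probes differ from those the study reported, most for higher calls in female pups. In male pups 0 of 64 protocadherin probes were called lower and 0 higher, against 2.17% and 1.42% of all probes. In female pups 17 were called lower (26.6%, against 10.3% of all probes) and 1 higher (1.56%, against 8.65%). Of the 4815 probes called higher in female pups, 635 were detected on all 6 arrays. A further 132 were detected on all but female 20 mg replicate 2. The share of 8.65% thus rests mostly on probes not detected on at least 1 other array, and is a weak measure for the members. The 17 were Pcdha4, Pcdha8 probe 2 and Pcdha9 in alpha, Pcdhb3, Pcdhb4, Pcdhb6, Pcdhb7, Pcdhb12, Pcdhb13, Pcdhb14, Pcdhb16, Pcdhb17, Pcdhb21 and Pcdhb22 in beta, and Pcdh20, Pcdh7 probe 1 and Pcdh11x probe 1 outside the clusters. The 1 called higher was Pcdhgc5. No gamma probe was called lower. Calls among the members are not independent, since the probes share their arrays and some share transcripts.

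These female calls came from 1 array. None of the 17 was detected on female 20 mg replicate 2, where they lay 2.57 to 6.17 below the female 2 mg array on the log2 scale, so there they have only a bound and their 20 mg mean rests on 1 detected array of 2. On replicate 1, where each was detected, they differed from the 2 mg array by -0.68 to 0.47. Pcdhb16 had the most negative female difference, -3.18, from values of 9.49, 9.30 and 3.32, while in male pups it read 9.37, 9.05 and 8.79. Pcdhgc5, with a difference of 1.85, differed by 0.01 on replicate 1 and by 3.69 on replicate 2. Called by the rule and past 2.5-fold on both 20 mg arrays were 0 of 64 members in either direction and sex, against 0.821% of all probes lower and 0.216% higher in male pups, and 0.844% lower and 0.257% higher in female pups. Pcdhga10 was past 2.5-fold on both female 20 mg arrays, by -2.23 and -2.52, but did not pass the filter.

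Without female 20 mg replicate 2, 1 protocadherin probe was called lower in female pups (Pcdhga10, against 2.58% of all probes) and 0 higher (against 1.77%). All 17 lower calls fell among the 33 members detected on the other 5 arrays but not on this one, a class in which 33% of all probes were called lower and 0.99% higher. This class is itself set by low signal on that array, so its share is a description. Of the 13 members detected on all 6 arrays, 0 were called lower and 0 higher in female pups, against 2.22% and 5.12% of all probes so detected. On the arrays of the later scan day alone, which leave 1 array per group, 1 member was called lower and 2 higher in female pups (Pcdhga10, and Pcdhb19 and Pcdh9 probe 2), against 3.05% and 2.15% of all probes. In male pups the same arrays gave 6 lower and 4 higher, against 7.56% and 9.15%. The 6 were Pcdhb5, Pcdhb10, Pcdhb18, Pcdhga10, Pcdh15 probe 7 and Pcdh7 probe 3, and the 4 were Pcdhb1, Pcdhga9 probe 1, Pcdh15 probe 2 and Pcdh1 probe 2.

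By class, the median dose difference in male pups was -0.01 for alpha, -0.18 for beta, 0.06 for gamma and 0.09 for the genes outside the clusters, beside 0 for all probes. In female pups it was -0.99 for alpha, -1.22 for beta, -0.47 for gamma and -0.13 outside the clusters, again beside 0 for all probes. The all-probe median includes probes detected on no array. Among the probes of the limma fit, well above background on at least 2 arrays, it was -0.04 in male and -0.21 in female pups. On the female arrays it was 0.03 on replicate 1 and -0.48 on replicate 2. The female median outside the clusters was thus not below that of the probes in the fit. Under a shift of each array to a common 75th percentile the median of all probes in female pups was 1.04. Relative to it the medians were -0.78 for alpha, -1.45 for beta, -0.78 for gamma and -0.87 outside the clusters, where the last was as low as alpha, and before that subtraction they were 0.26, -0.41, 0.26 and 0.18. Without the dim array the female medians were 0.13 for alpha, 0.06 for beta, -0.43 for gamma and 0.04 outside the clusters. Array by array, the female beta median was 0.06 on replicate 1 and -2.29 on replicate 2, and the alpha median 0.14 and -1.97. The gamma median was -0.45 and -0.75, and that outside the clusters 0.04 and -0.24. In male pups the beta median was 0.41 on replicate 1 and -0.66 on replicate 2, the 2 pools thus lying on either side of the 2 mg array. The other male class medians lay between -0.19 and 0.53 on single arrays. The beta genes were below the 2 mg array in 18 of 22 on female replicate 2, 11 of 22 on female replicate 1, 8 of 22 on male replicate 1 and 15 of 22 on male replicate 2.

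**Figure D4:**
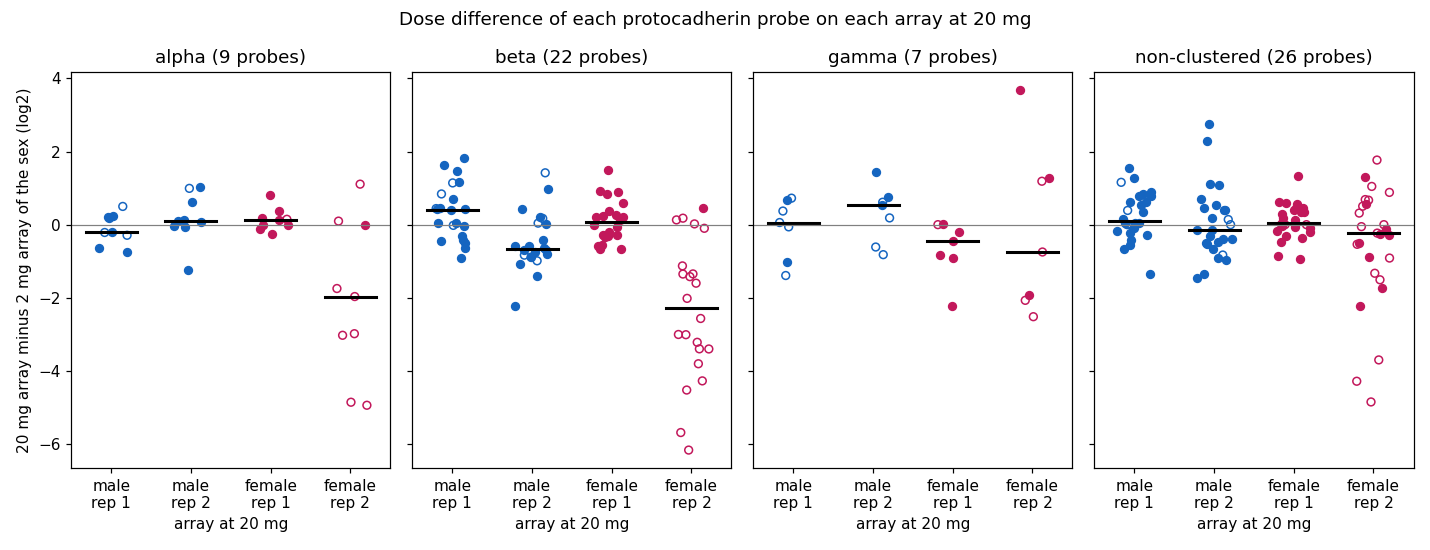
Log2 signal of each 20 mg array minus the 2 mg array of its sex (vertical axis), with 1 panel per class, 1 point per probe and a bar at the median. Open points were not well above background on the 20 mg array. The medians of alpha (-1.97) and beta (-2.29) on female replicate 2 lie far below those on the other 3 arrays.

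The pools at 20 mg of a sex differed from each other by more, at the median over the members, than either did from the 2 mg array. Over the 64 members the median size of the difference between the 20 mg arrays of a sex was 0.90 in male and 1.51 in female pups. Replicates 1 and 2 differed from the 2 mg array by 0.44 and 0.61 in male and by 0.31 and 1.35 in female pups. The median size of the dose difference was 0.34 in male and 0.75 in female pups. The dose difference averages 2 arrays at 20 mg, so its size is not measured like a difference of single arrays. For all probes these were 0.70 and 1.26 between pools, and 0.33 and 0.64 between doses. The groups at 2 and 20 mg, both sexes together, did not overlap for 8 members. Pcdhb2, Pcdhb16, Pcdhb17 and Pcdh17 lay lower on all 4 arrays at 20 mg, against 3.34% of all probes, and Pcdhac1, Pcdhb11, Pcdh15 probe 5 and Pcdh1 probe 1 lay higher, against 3.24%. Pcdhb17 read 10.12, 9.54 and 6.90 in female pups and 9.76, 9.32 and 9.0 in male pups, so its 20 mg arrays other than the dim one differed from the 2 mg array by -0.75 to -0.44. Pcdh15 probe 5 read 6.45, 6.80 and 7.33 in female pups and 6.56, 6.72 and 7.02 in male pups. Of these 8, Pcdh17 alone was detected on all 6 arrays.

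In the limma fit of the 4 groups of sex and dose, over 37211 probes of which 60 are members, 0 members and 0 of all probes passed an adjusted p of 0.05 in male pups, in female pups, over both sexes or in the interaction (0% called in each). At an unadjusted p under 0.05 there were 0 members in each, against 0.199%, 0.433%, 0.39% and 0.137% of all probes. The standard errors of the members' differences were 0.91 to 2.30 within a sex. With 1 array per sex at 2 mg, the design leaves 2 residual degrees of freedom. In a simulation that gave every probe the same SD of 1.32, 0.5% of male differences of 4 on the log2 scale were recovered. Of 200 interactions, from changes of 4 in opposite directions in the sexes, 72 were recovered. The members' standard errors varied, so these shares do not hold for each member. A lack of calls thus does not show that levels were alike.

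Genes that act with protocadherins were counted from fixed lists, by the brightest probe of each gene. Of 16 genes for chromatin control of the clusters, 0 were called in male pups and 3 lower in female pups, with a median difference of -0.13 and -0.60. The 3 were Stag1 and Pds5a, parts and partners of cohesin, and Dnmt3a, a DNA methyltransferase. Over all probes, 10.3% were called lower and 8.65% higher in female pups, and 2.17% and 1.42% in male pups. The counts of the lists are to be read against these shares. Dnmt3a read 13.11, 13.08 and 10.33 in female pups and 13.19, 13.53 and 12.56 in male pups, and was detected on all 6 arrays. Ctcf was not called, with differences of -0.02 in male and -0.96 in female pups. Of 14 signalling partners, 1 was called, the kinase Fyn, with a female difference of -1.52. Of 19 other cadherins, Cdh5 and Cdh10 were called lower and Cdh24 higher in female pups, and 0 in male pups. Stag1, Pds5a, Fyn, Cdh5, Cdh10 and Cdh24 were not detected on female 20 mg replicate 2. On female 20 mg replicate 1 the differences were -0.43 for Stag1, 0.24 for Pds5a, -0.04 for Dnmt3a, 0.15 for Fyn, -1.84 for Cdh5, 0.89 for Cdh10 and 0.68 for Cdh24. Without the dim array, 0 of the chromatin genes and 0 of the signalling partners were called in female pups, and 1 of the other cadherins was called lower and 2 higher. Of all probes, 2.58% were then called lower and 1.77% higher.

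Markers of other tissues also differed between the arrays. Of the 6 choroid plexus markers at least 5 were detected on each array, and they had a summed signal of 5800 on the female 2 mg array, 80464 and 31839 on the female 20 mg arrays, 26950 on the male 2 mg array and 47877 and 45461 on the male 20 mg arrays. Ttr alone gave 40409.5 of the last value. The median log2 of these markers was 7.27, 9.87 and 10.67 in female pups and 8.57, 9.19 and 8.91 in male pups. Their female dose differences ranged from -0.73 for Kl to 4.16 for Ttr. The 7 forebrain markers summed to 3945, 8172 and 933 in female pups and 2374, 4258 and 1800.4 in male pups, and 0 of 7 were detected on female 20 mg replicate 2, against all 7 on the other female arrays. The 6 endothelial markers, the cell type of Pcdh12, summed to 11010, 6155 and 6871 in female pups and 8966, 9885 and 25048 in male pups, where Kdr alone gave 19826 of the last value. The median log2 of these 6 was 10.23, 8.88 and 8.92 in female pups and 9.83, 9.63 and 9.70 in male pups. The 6 meningeal markers ranged from 15382 to 22952 over the 6 arrays. The 6 red blood cell markers summed to 107073 on the dim array and to 197512 to 360799 on the others. The part of these tissues in the protocadherin values was not tested.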

How the data were processed

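RNA of P1 cerebellum was measured on 6 single-colour Agilent mouse arrays (pools of 3 pups). The authors made the intensities with Agilent Feature Extraction 10.7.3.1, which subtracts background and replaces values near it, without scaling between arrays; the deposited log2 table was quantile normalized and given a floor by the authors in BRB-ArrayTools. Here outlier spots were left out, spots of a probe averaged, log2 values quantile normalized over 6 arrays and then raised to a floor of 10. The variation filter compares a probe's variance with the median variance (chi-square, p at most 0.05, at most 50% missing). limma 3.58.1 (R 4.3.3) was fitted with a trend to 4 groups, on probes well above background on at least 2 arrays, with Benjamini-Hochberg adjustment, and tested on simulated data. p-values rest on the spread between the 20 mg arrays of a sex. These arrays lay on different slides and scan days and include the dim array. Pool, slide, day and array quality cannot be told apart in that spread. The number of arrays limits the precision. Groups follow the labelled sex and dose, and 0 columns of other samples were used.

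Members and gene lists were chosen with earlier results of these data known. The named probes were the brightest of each gene outside the clusters, the 3 genes with the highest means in each cluster, C-type isoforms, shared-exon probes, members past 2.5-fold on both 20 mg arrays and those with an unadjusted p under 0.05. The bound for an undetected group uses the lowest detected signal of each array. Alternatives were other scaling, background and floor choices, each 20 mg array left out, the scan day, and other filters. Some markers of the lists are not reported here. Calls in the gene lists without female 20 mg replicate 2 were added after seeing the data.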

Additional observations from a re-analysis of the deposited data

Results flagged for a closer look

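Among the probes named by the rule and the class medians, in 3 results both 20 mg arrays of one sex moved one way and both of the other sex the opposite way. The share of all probes with this pattern was not counted, so the 3 are only a description of chosen members. For the gamma shared-exon probe Pcdhga9 probe 2 the female minus male dose difference was -1.90 on the log2 scale, from -0.45 and -1.92 on the female 20 mg arrays and 0.67 and 0.76 on the male ones, with an interaction p of 0.16 in limma (adjusted p = 1.0). For Pcdh12 it was 1.43, from 0.45 and 0.69 in female and -1.34 and -0.39 in male pups, with an interaction p of 0.63 in limma (adjusted p = 1.0). Pcdh12 was not detected on female 20 mg replicate 2. For the median of the 7 gamma probes the female minus male dose difference was -0.89. It came from -0.45 and -0.75 in female and 0.06 and 0.53 in male pups, and it was not tested. Of the 7 probes, 2 were detected on male 20 mg replicate 1, and 3 on replicate 2 of each sex. The male replicate 1 median of 0.06 is the value of Pcdhga5, which was detected on no array, so this result rests largely on values near background. It also moved with the processing. The female gamma median of -0.47 came to -0.13 in the authors' value table and -0.12 with the floor before quantile normalization. It was -0.07 with normexp background correction, 0.26 under the 75th percentile shift and -0.58 without a floor. The male gamma median of 0.06 came to 0.58 on the later scan day alone.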

How the results depend on the processing

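No paired analysis was possible because the 2 mg arrays carry no replicate number, so the doses share none. The 17 protocadherin probes called lower in female pups became 0 under the 75th percentile shift and 9 with normexp background correction. They became 13 without a floor, 18 in the authors' value table, 19 without the variation filter and 21 with the floor before quantile normalization. They became 1 on the later scan day alone, 1 on slide 1 alone and 1 to 18 with a 20 mg array left out, the lowest without female 20 mg replicate 2. Under the 75th percentile shift the female median of all probes was 1.04, against 0 in the main setting. The beta median relative to it was -1.45. Shares of all probes called are given above for the later scan day and without female 20 mg replicate 2 only. The 1 called higher became 0 with normexp, 2 on the later scan day alone, 2 on slide 1 alone, and 0 to 1 with an array left out. In male pups the 0 lower became 6 and the 0 higher became 4 on the later scan day alone, and 0 to 1 and 0 to 2 with an array left out. The cause was not tested. The limma counts were 0 in 13 alternatives each, with up to 11 members at an unadjusted p under 0.05 in female pups without female 20 mg replicate 1. Of 550 values of named probes, 9 changed sign from a called one, all in female pups and on arrays without the dim one: Pcdha8 probe 2 came to 0.13 on the later scan day, 0.14 on slide 1 and 0.13 without female 20 mg replicate 2, Pcdhb7 to 0.21, 0.22 and 0.21, and Pcdh20 to 0.46, 0.48 and 0.47. Without female 20 mg replicate 1 they came to -4.84, -3.35 and -4.18. Without female 20 mg replicate 2 the female class medians came to 0.13 for alpha, 0.06 for beta, -0.43 for gamma and 0.04 outside the clusters. With the scan day as a block in limma the class medians came to 0.68 for alpha, 0.46 for beta, 0.08 for gamma and 0.18 outside the clusters in male pups. In female pups they came to -0.53, -0.79, -0.73 and -0.21 in the same order. Signal over background limits the dim array, with 14 of 64 members detected.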
